A study of Mus musculus with 28 samples.

Results

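The genes described are 10 transcription factor and immediate early genes, Fos, Fosb, Fosl1, Fosl2, Jun, Junb, Jund, Egr1, Ier2 and Myc, taken by gene symbol from the annotation of a one-colour Agilent mouse expression array. All 10 were on the array, through 14 of its 41174 probes, and all 10 passed the filter on dim probes, which kept 20302 features in all. A feature passed when its probe was well above background throughout some group of 4 arrays. Fosl1 passed through the groups without NTBC, in which it was high. Fosb passed through the p53-/- groups in which it was high. It also passed through Fah-/- livers without NTBC, where its mean was no higher than on the full dose. RNA came from mouse liver, with 28 samples in 7 groups of 4, each sample on 1 array. All the mice were Fah-/-. They lacked fumarylacetoacetate hydrolase, the last enzyme of tyrosine breakdown, and the drug NTBC, which blocks that pathway upstream and so prevents toxic intermediates from building up, was given in the drinking water.

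Fah-/- mice and Fah-/- p53-/- mice each had the full dose of NTBC (7.5 mg/L), a reduced dose or none, and Fah-/- p21-/- mice had none. The sources disagree on the reduced dose. The sample labels give 25% of the full dose, while the treatment notes give 2.5% for 3 months, so no figure is attached to it below. The time that mice spent without NTBC, their ages and their strain background are not given in the sources used here. Whether each sample is a separate animal is not labelled, so p-values measure the spread between these samples only. The series asked how disruption of the p53 and p21 arm of the DNA damage response alters liver injury, and the comparisons below are between doses within a genotype, between genotypes at a dose, and between the dose responses of Fah-/- and Fah-/- p53-/- livers.

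Immediate early genes are transcribed within minutes of a stimulus, without new protein synthesis, when signalling kinases act on factors already bound at their promoters. The FOS proteins (Fos, Fosb, Fosl1 and Fosl2) pair with the JUN proteins (Jun, Junb and Jund) to form the AP-1 transcription factor, Egr1 is a zinc finger factor of the same early wave, Ier2 is a small nuclear protein of that wave, and Myc drives growth and ribosome synthesis genes. In liver these genes are known for their induction as hepatocytes leave rest after tissue loss or injury, and many of their transcripts are short-lived.

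The RefSeq table used here (build GRCm38.p6) held the promoters of 6 of the 10 genes. The 250 bases before the start site are printed for the 5 that held a match to the letters marked below. The Jund window held no such match and is not printed. Whether these sites bear on the changes described below was not tested. Egr1, Fosl1, Ier2 and Myc were not in the table. The windows are at chr12:85473640-85473889 on the plus strand for Fos, chr7:19310046-19310295 on the minus strand for Fosb, chr5:32136222-32136471 on the plus strand for Fosl2, chr4:95052223-95052472 on the minus strand for Jun and chr8:84978749-84978998 on the minus strand for Junb. Each is written 5′ to 3′ on the gene's own strand, and capitals mark matches to the letters TGACG (the core of a cAMP response element), TGACNTCA (a site bound by ATF and JUN proteins), TATAAA and GCGNGGGCG (an EGR site).
Fos: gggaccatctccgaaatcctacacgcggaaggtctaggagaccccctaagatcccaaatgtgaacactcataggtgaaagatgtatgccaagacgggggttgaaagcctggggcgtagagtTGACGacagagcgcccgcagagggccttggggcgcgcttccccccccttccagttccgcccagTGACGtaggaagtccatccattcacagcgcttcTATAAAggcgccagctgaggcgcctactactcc
Fosb: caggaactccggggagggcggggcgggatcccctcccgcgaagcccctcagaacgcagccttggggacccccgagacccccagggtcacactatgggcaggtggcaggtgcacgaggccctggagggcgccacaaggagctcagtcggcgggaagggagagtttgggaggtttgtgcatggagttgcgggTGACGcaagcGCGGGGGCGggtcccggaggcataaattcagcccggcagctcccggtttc
Fosl2: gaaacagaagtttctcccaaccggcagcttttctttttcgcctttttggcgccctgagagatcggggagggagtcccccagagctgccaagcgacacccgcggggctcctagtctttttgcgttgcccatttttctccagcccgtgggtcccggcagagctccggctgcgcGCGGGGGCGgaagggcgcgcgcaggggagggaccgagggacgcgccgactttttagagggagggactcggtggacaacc
Jun: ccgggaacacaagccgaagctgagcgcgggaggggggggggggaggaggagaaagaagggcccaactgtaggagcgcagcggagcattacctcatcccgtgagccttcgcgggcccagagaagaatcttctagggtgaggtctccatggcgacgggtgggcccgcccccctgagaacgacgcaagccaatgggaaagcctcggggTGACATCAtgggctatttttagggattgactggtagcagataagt
Junb: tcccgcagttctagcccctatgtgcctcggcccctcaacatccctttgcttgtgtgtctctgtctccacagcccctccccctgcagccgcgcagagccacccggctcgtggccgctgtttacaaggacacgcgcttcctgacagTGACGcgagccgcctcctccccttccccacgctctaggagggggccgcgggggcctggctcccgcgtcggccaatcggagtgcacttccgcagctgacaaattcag
In the Fos window TGACG lay 129 and 66 bases before the start and TATAAA 33 bases before it. Jun held TGACATCA, a match to TGACNTCA, 45 bases before its start, and Junb held TGACG 106 bases before its start. Fosb held TGACG 60 bases and GCGNGGGCG 50 bases before its start, whereas the match in Fosl2 was to GCGNGGGCG alone, 79 bases before the start. Searched on both strands, TGACG was in 17.8% of all 32851 promoters of that length, TGACNTCA in 7.49%, TATAAA in 12.4% and GCGNGGGCG in 4.7%. The CArG box CCWWWWWWGG, with W for A or T (1.47% of promoters), the AP-1 letters TGANTCA (6.75%) and the E-box CACGTG (6.02%) matched none of the windows of Fos, Fosb, Fosl2, Jun, Junb and Jund. Bases farther upstream than 250 were not searched, so a site there would not show. The letters were chosen with the sequences in view, and a match describes the window only.

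The level of a gene is given throughout as log2 of its processed signal minus the 75th percentile of that array, so 0 is the 75th percentile and 1 unit is a doubling. That percentile lay between 252 and 578 signal units on the 28 arrays, and 54.8% to 68.5% of probes on an array were well above background. Each dose was scanned in a run of its own (3 runs), and the effects of run and dose cannot be told apart. On the full and reduced doses 1 slide held 1 genotype, so that slide and genotype cannot be told apart there, while the 12 arrays without NTBC lay on 3 slides that held 2 groups each. By Xist and Ddx3y signals, all 4 Fah-/- p53-/- arrays without NTBC were from female livers, as were 2 of the 4 Fah-/- p21-/- arrays, and the other groups had the male pattern. Sex and p53 genotype therefore cannot be told apart without NTBC. In p53-/- livers, sex and the stop of NTBC cannot be told apart either, and the interaction of none against full with p53 carries the same overlap. Albumin (Alb), the main secreted protein of hepatocytes, had group means between 8.65 and 10.56. The probes for Fah, Trp53 and Cdkn1a gave signal well above background in the mutants too, and since the place of each probe relative to the deleted part was not analysed here, they do not check the genotype labels. The arrays farthest from their groups were Fah-/- p53-/- replicate 1 and Fah-/- p21-/- replicates 1 and 2, all without NTBC.

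Without NTBC, liver RNA differed from the full dose over most of the array. With p53 present, 70.9% of the 20302 features passed the test (29.3% higher and 41.6% lower), limma over all 28 arrays with Benjamini-Hochberg adjustment at an adjusted p under 0.05, and 6 of the 10 genes did, 3 in each direction. In Fah-/- p53-/- livers 69.7% of features passed (29.6% higher and 40.1% lower), and so did 8 of the 10 genes, 5 higher and 3 lower. The arrays of the 2 groups did not overlap for 6 genes in either genotype, against 67% of features with p53 and 59.9% without. These counts are near the background, so the number of genes changed is no property of this group of genes, and the direction and size of each one carry the description. On the scale used here, Fosl1, Fosl2 and Myc rose in both genotypes and Junb, Jund and Ier2 fell in both. Neither Fos nor Egr1 passed the test in either. The calls of Fosl2 in both genotypes, of Jund with p53 and of Junb without p53 were lost under some alternatives, as given below.

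**Figure D1:**
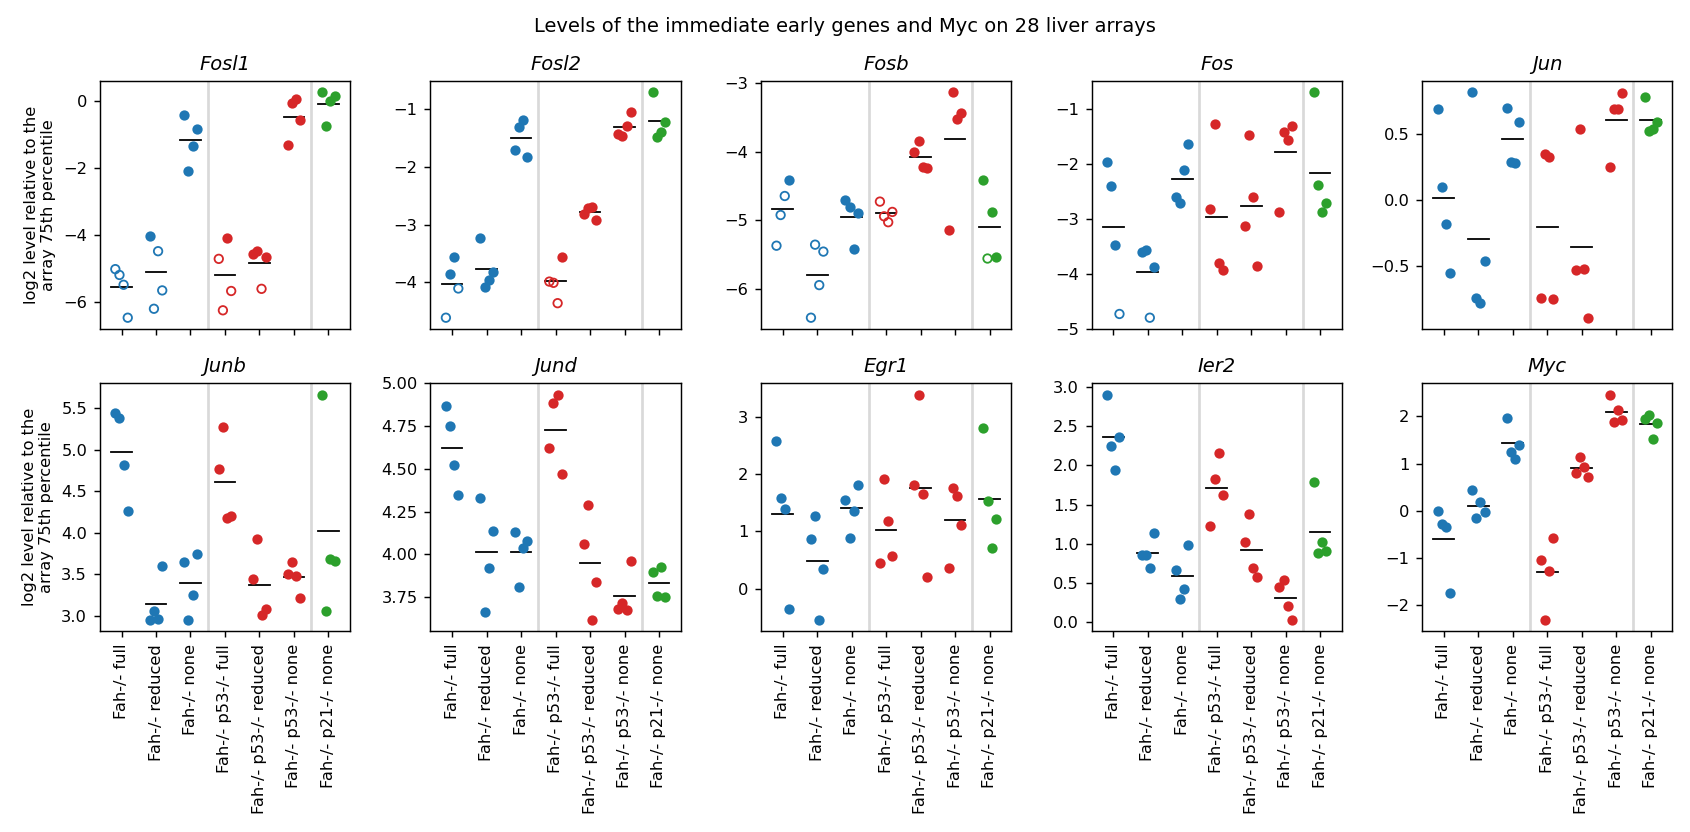
Level of each of the 10 genes on each of the 28 arrays, in log2 units relative to the 75th percentile of the array, by group. Filled points are well above background, open points are not, and bars are group means of 4 arrays; Fosl1 lies between -2.08 and 0.27 on all 12 arrays without NTBC and at -4.02 or below on the other 16.

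Fosl1, which encodes the FOS protein FRA1, showed the widest change. It read -5.02, -5.19, -5.49 and -6.47 in Fah-/- livers on the full dose, none of them well above background, and -4.02, -6.21, -4.48 and -5.66 on the reduced dose, where only the first was. Without NTBC it read -0.40, -2.08, -1.33 and -0.82, all 4 well above background. The arrays without NTBC did not overlap those of either dose, and the levels at the 2 doses overlapped each other. Because the full-dose arrays give only a bound, the rise was at least 9.37-fold, with a fitted difference of 4.38 ± 0.49 log2 units (SE, n = 4 per group, limma adjusted p = 3.75e-08). The bound is the mean of the bright group against, per array, the higher of the dim probe's own level and the lowest level among probes well above background. It fell to at least 2.39-fold with normexp background correction and at least 3.03-fold in the authors' deposited values.

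Fosl1 without p53 was alike in range. It read -4.71, -6.25, -4.10 and -5.67 on the full dose, with 1 of 4 arrays well above background, and -4.58, -4.47, -5.61 and -4.66 on the reduced dose, with 3 of 4. Without NTBC it read -1.30, -0.05, 0.06 and -0.54, again apart from every treated array. The fitted difference from the full dose was 4.73 ± 0.49 (limma adjusted p = 1.085e-08), but since 1 of 4 full-dose arrays measured the gene its size rests on how background is handled, and it was 1.06 (limma adjusted p = 0.01354) with normexp correction. In the livers lacking p21 the 4 readings without NTBC were 0.27, -0.74, 0.02 and 0.15. Group means ran from -0.08 ± 0.45 (SD, n = 4) in those livers through -0.46 ± 0.62 without p53 to -1.16 ± 0.72 in Fah-/- livers, and neighbours in that order overlapped. The difference between the p21-/- and Fah-/- livers was 1.08 ± 0.49 and did not pass the adjusted test (limma adjusted p = 0.1864), though in the authors' deposited values it was 0.81 with a limma adjusted p of 0.01816.

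Fosl2, which encodes FRA2, rose too, from a full-dose level at which 2 of 4 Fah-/- arrays were not well above background. Its Fah-/- readings were -4.61, -3.85, -3.57 and -4.10 on the full dose, the first and last not well above background, and -3.24, -4.08, -3.96 and -3.82 on the reduced dose. Without NTBC the readings were -1.71, -1.32, -1.19 and -1.83, which did not overlap either dose. The fitted difference from the full dose was 2.52 ± 0.22 (limma adjusted p = 5.453e-10), and no fold is given since only 2 of the full-dose arrays measured the gene.

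In livers without p53 Fosl2 already stood apart on the reduced dose. It read -3.99, -4.01, -4.36 and -3.56 on the full dose, with 1 of 4 arrays well above background, then -2.82, -2.71, -2.70 and -2.92 on the reduced dose and -1.43, -1.48, -1.30 and -1.06 without NTBC. The 3 sets did not overlap, and the reduced dose was higher than the full dose by 1.19 ± 0.22 (limma adjusted p = 0.0001598) and lower than no NTBC by 1.47 ± 0.22 (limma adjusted p = 3.971e-06). In p21-/- livers without NTBC it read -0.72, -1.49, -1.39 and -1.23. These calls depend on how background is handled for a dim probe. With normexp correction the rise without NTBC was 0.67 in Fah-/- (limma adjusted p = 0.05101) and 0.26 without p53 (limma adjusted p = 0.4336), and the change on the reduced dose without p53 was -0.66. A second, dimmer Fosl2 probe did not follow, with changes without NTBC of 0.20 (limma adjusted p = 0.4448) in Fah-/- livers and -0.39 in livers without p53.

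Fosb, a FOS protein with a full activation domain, stayed close to background throughout. On Fah-/- arrays it read -5.37, -4.92, -4.64 and -4.41 on the full dose, with the last alone well above background, and -6.42, -5.35, -5.94 and -5.46 on the reduced dose, with none. Without NTBC it read -4.70, -4.80, -5.42 and -4.89, all above background. No fold is given for these, since the dim arrays lie at the limit of detection, where full-dose arrays first count as well above background between -4.14 and -4.95. The Fah-/- arrays without NTBC did so between -5.33 and -5.83, so being above background there does not show a higher level.

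In the absence of p53, Fosb was higher without NTBC than on the full dose on the scale used here, but not with normexp correction. It read -4.73, -4.94, -5.03 and -4.88 on the full dose, none well above background, -4.00, -3.84, -4.21 and -4.24 on the reduced dose, and -5.15, -3.13, -3.51 and -3.43 without NTBC. Replicate 1 without NTBC lay below the 3 others and below every full-dose array. The reduced-dose arrays lay above all the full-dose arrays, by at least 1.32-fold, without passing the test (fitted difference 0.82 ± 0.33, limma adjusted p = 0.05344). On this scale the level without NTBC was higher by at least 1.59-fold (fitted difference 1.09 ± 0.33, limma adjusted p = 0.005891). With normexp correction these differences turned to -1.02 and -0.63, and the first passed the test as a fall. In p21-/- livers without NTBC the readings were -4.41, -5.56, -4.88 and -5.53.

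Fos itself, the prototype of the family, varied widely between arrays of 1 group. In Fah-/- livers it read -1.96, -2.40, -3.48 and -4.73 on the full dose, -3.59, -3.55, -4.80 and -3.88 on the reduced dose, and -2.60, -2.71, -2.10 and -1.63 without NTBC. The full-dose arrays span the range of the others, and the arrays without NTBC lay above all those of the reduced dose by a mean of 1.69 ± 0.63 (limma adjusted p = 0.02266). That call was lost without Fah-/- replicate 4 of no NTBC (1.48, limma adjusted p = 0.06647), without replicate 3 of the reduced dose (1.41, limma adjusted p = 0.07612), with normexp correction (0.50, limma adjusted p = 0.3072) and in the authors' deposited values (0.64, limma adjusted p = 0.0509).

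In livers without p53, Fos read -2.81, -1.26, -3.81 and -3.93 on the full dose, -3.12, -1.47, -2.60 and -3.85 on the reduced dose, and -2.87, -1.42, -1.56 and -1.30 without NTBC. The sets overlapped, with replicate 2 the highest at both doses and replicate 1 the lowest without NTBC. The difference between none and full was 1.17 ± 0.63 (limma adjusted p = 0.1026). It was 1.73 (limma adjusted p = 0.01751) without full-dose replicate 2, and 1.53 (limma adjusted p = 0.04532) without replicate 1 of no NTBC. Group means of Fos overlapped with their neighbours throughout, from -1.79 in livers without p53 and NTBC to -3.96 in Fah-/- livers on the reduced dose.

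Of the JUN genes, Jun moved little and Junb and Jund fell. Jun, the main activating partner of FOS proteins, read 0.69, 0.10, -0.18 and -0.55 in Fah-/- livers on the full dose, 0.82, -0.74, -0.78 and -0.46 on the reduced dose and 0.70, 0.29, 0.28 and 0.59 without NTBC. These sets overlapped, and none against full was 0.45 ± 0.34 (limma adjusted p = 0.236).

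Without p53 Jun read -0.74, 0.35, 0.33 and -0.75 on the full dose, -0.53, 0.54, -0.52 and -0.89 on the reduced dose, and 0.25, 0.69, 0.69 and 0.81 without NTBC. The last set overlapped both others in part. It was higher than the full dose by 0.81 ± 0.34 (limma adjusted p = 0.03563), and this call was lost on leaving out full-dose replicate 1 or 4, or replicate 2, 3 or 4 of no NTBC (0.63 to 0.79, limma adjusted p from 0.06605 to 0.1239). Against the reduced dose the rise was 0.96 ± 0.34 (limma adjusted p = 0.0168), lost without reduced-dose replicate 4 (0.78, limma adjusted p = 0.06625). The 4 p21-/- arrays read 0.79, 0.52, 0.54 and 0.59.

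Junb, a JUN protein that can restrain Jun at shared sites, was high on the full dose. It read 5.44, 5.38, 4.82 and 4.26 in Fah-/- livers on the full dose, 2.95, 3.05, 2.95 and 3.60 on the reduced dose and 3.65, 2.95, 3.25 and 3.74 without NTBC. Every full-dose array lay above every array of the lower doses, which overlapped each other. The fall came with the reduced dose (fell by 1.84 ± 0.39 on the log2 scale, limma adjusted p = 0.0006363), and the level without NTBC differed from the reduced dose by 0.26 ± 0.39 (limma adjusted p = 0.5736). A second Junb probe gave -1.83 on the reduced dose and -1.90 without NTBC.

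Livers without p53 showed the same order for Junb, with 4.77, 5.27, 4.18 and 4.20 on the full dose, 3.44, 3.92, 3.01 and 3.08 on the reduced dose and 3.50, 3.65, 3.47 and 3.21 without NTBC. The full-dose arrays did not overlap either other set. Junb fell by 1.24 ± 0.39 on the reduced dose (limma adjusted p = 0.01364) and by 1.15 ± 0.39 without NTBC (limma adjusted p = 0.01151). Both calls were lost without full-dose replicate 2 (-1.02, limma adjusted p = 0.05699, and -0.92, limma adjusted p = 0.05118), and with quantile normalization (-0.95, limma adjusted p = 0.07713, and -0.73, limma adjusted p = 0.1239) or normexp correction (-0.48, limma adjusted p = 0.3252, and -0.71, limma adjusted p = 0.1356). In p21-/- livers without NTBC, replicate 1 read 5.67, within the full-dose range, and the others read 3.06, 3.68 and 3.66.

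Jund, the most evenly expressed JUN gene, fell by less and with little spread. Fah-/- livers read 4.87, 4.75, 4.52 and 4.35 on the full dose, 4.33, 3.66, 3.92 and 4.13 on the reduced dose and 4.13, 3.81, 4.04 and 4.08 without NTBC. The full-dose arrays were above all others, by 0.61 ± 0.15 at both steps (limma adjusted p = 0.002564 for reduced and 0.0009975 for none). Without p53 the full-dose readings were 4.62, 4.88, 4.93 and 4.47, those on the reduced dose 4.06, 4.29, 3.62 and 3.84, and those without NTBC 3.68, 3.71, 3.68 and 3.96. Jund fell there by 0.78 ± 0.15 and 0.97 ± 0.15 (limma adjusted p = 0.0002897 and 4.669e-06). With p53 present the fall depended on the scaling, since without NTBC it was -0.09 (limma adjusted p = 0.6155) with quantile normalization and -0.07 (limma adjusted p = 0.7183) in the authors' deposited values. The same settings gave, for the reduced dose, -0.37 (limma adjusted p = 0.06188) and -0.27 (limma adjusted p = 0.1973). Without p53 the reduced-dose fall was -0.37 (limma adjusted p = 0.07953) in the authors' deposited values. With normexp correction the 4 falls of Jund were -0.41 and -0.39 with p53 and -0.06 and -0.50 without, and none passed (limma adjusted p from 0.05108 to 0.8155). The median of all features without NTBC against the full dose was -0.17 on the scale used here, and 0.01 after quantile normalization.

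Ier2 fell at the same doses as Junb. In Fah-/- livers it read 2.90, 2.24, 1.94 and 2.36 on the full dose, 0.85, 0.86, 0.70 and 1.14 on the reduced dose and 0.67, 0.30, 0.43 and 0.99 without NTBC, so that every full-dose array was above the rest. It fell by 1.47 ± 0.23 on the reduced dose (limma adjusted p = 2.905e-05) and by 1.76 ± 0.23 without NTBC (limma adjusted p = 4.399e-07). Without p53 it read 1.22, 1.83, 2.16 and 1.62 on the full dose, 1.03, 1.38, 0.70 and 0.58 on the reduced dose and 0.45, 0.54, 0.21 and 0.03 without NTBC. The sets at the full and the reduced dose overlapped, and all 4 arrays without NTBC lay below both. Ier2 fell there by 0.78 ± 0.23 and 1.40 ± 0.23 (limma adjusted p = 0.009652 and 1.141e-05), the first lost with normexp correction (-0.35, limma adjusted p = 0.1782). In p21-/- livers it read 1.78, 0.88, 1.03 and 0.90.

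Egr1 had no dose pattern beyond its spread. Its readings were 2.58, 1.58, 1.39 and -0.36 in Fah-/- livers on the full dose, 0.86, 1.26, -0.55 and 0.34 on the reduced dose and 1.55, 0.89, 1.36 and 1.82 without NTBC. Without p53 they were 0.44, 1.92, 1.19 and 0.58, then 1.81, 3.39, 1.65 and 0.20, then 0.36, 1.75, 1.61 and 1.11, and in p21-/- livers 2.80, 1.52, 0.70 and 1.22. All 7 groups overlapped their neighbours in order of mean. None against full was 0.10 ± 0.60 in Fah-/- livers (95% interval -1.14 to 1.35, limma adjusted p = 0.884), so a change of more than that size in either direction lies outside the interval, and a smaller one was not detectable with 4 arrays a group.

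Myc rose as NTBC was withdrawn, and in livers without p53 it rose already on the reduced dose. In Fah-/- livers it read 0.00, -0.28, -0.34 and -1.75 on the full dose, 0.44, -0.15, 0.20 and -0.03 on the reduced dose, and 1.97, 1.26, 1.11 and 1.39 without NTBC. The arrays without NTBC were above all those at either dose, and the 2 doses overlapped. None was above full by 2.02 ± 0.32 (4.06-fold, limma adjusted p = 4.974e-06), and reduced against full was 0.70 ± 0.32 (limma adjusted p = 0.08005), or 0.90 (limma adjusted p = 0.03858) without full-dose replicate 1.

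Without p53, Myc read -1.04, -2.31, -1.28 and -0.57 on the full dose, 0.81, 1.14, 0.93 and 0.73 on the reduced dose and 2.46, 1.89, 2.13 and 1.92 without NTBC. The 3 sets did not overlap. The rise was 2.20 ± 0.32 on the reduced dose (limma adjusted p = 1.027e-05) and 3.40 ± 0.32 without NTBC (10.6-fold, limma adjusted p = 1.598e-09). The p21-/- arrays without NTBC read 1.95, 2.02, 1.53 and 1.87. Of the 2 other Myc probes, the changes without NTBC were 2.31 and 0.68 in Fah-/- livers and 3.74 and 2.28 without p53, so the 3 probes shared a direction there but not a size. In the reduced-dose comparison of Fah-/- livers they gave 0.49 and -0.50 beside 0.70 for the brightest probe.

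**Figure D2:**
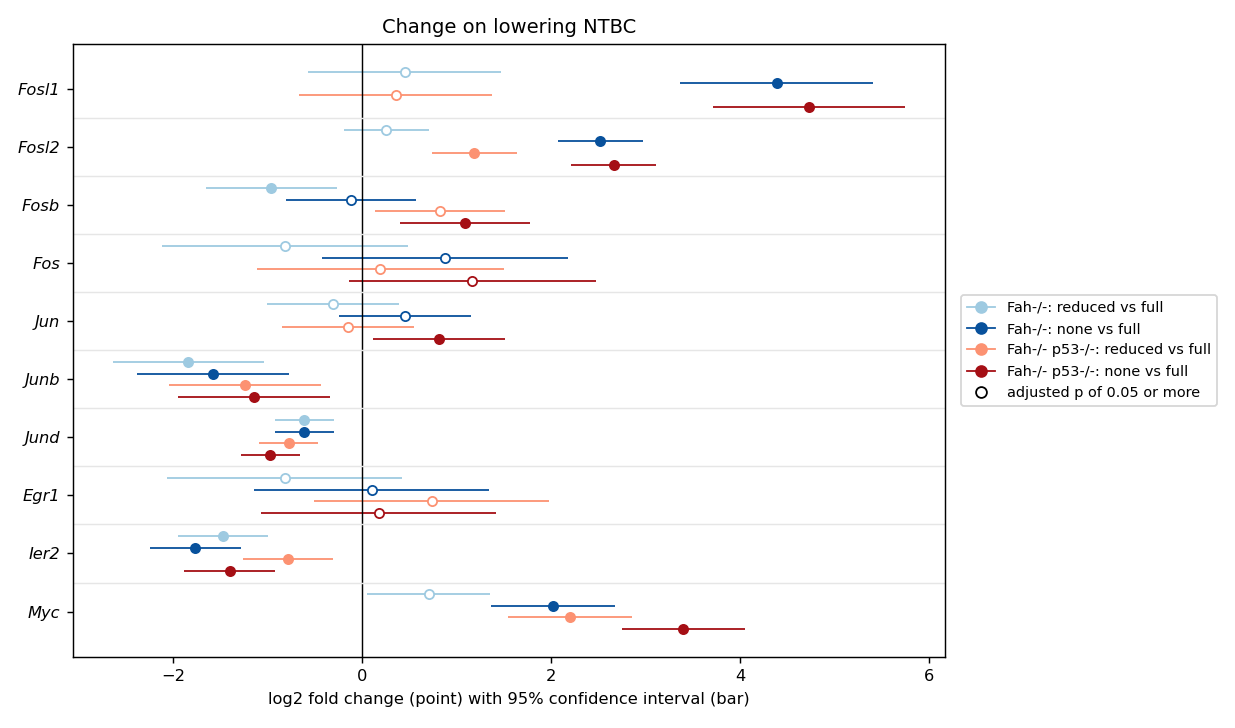
Log2 fold change of each gene on the reduced dose and without NTBC against the full dose, in Fah-/- and Fah-/- p53-/- livers, with 95% intervals from limma (4 arrays per group). Fosl1, Fosl2 and Myc lie to the right of 0 without NTBC in both genotypes, and Junb, Jund and Ier2 lie to the left of 0 at both doses.

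The steps between doses differed from gene to gene. On the reduced dose of Fah-/- livers, where 39.8% of features passed, 4 of the 10 genes did, and all 4 had a lower fitted value (22.3% of features passed as lower). They were Junb, Ier2, Jund and Fosb. Fosb was at the limit of detection in both groups, with 1 full-dose array above background and no reduced-dose array, so the size of its difference was not measured. That Fosb call (-0.96 ± 0.33, limma adjusted p = 0.02537) was lost with normexp correction (-0.50, limma adjusted p = 0.4779), in the authors' deposited values (-0.16, limma adjusted p = 0.103), and without full-dose replicate 3 or 4 or reduced-dose replicate 1 or 3 (limma adjusted p from 0.05699 to 0.1052). Arrays did not overlap for 3 genes, against 44.3% of features. In livers without p53, 39.8% of features and 5 genes passed on the reduced dose, with Myc and Fosl2 higher (20.3% of features) and Junb, Jund and Ier2 lower (19.5%), and arrays did not overlap for 5 genes against 39.3% of features. From the reduced dose to none, 64.3% of features and 5 genes passed in Fah-/- livers, all higher (26.1% of features), namely Fosl1, Fosl2, Myc, Fos and Fosb, and arrays did not overlap for 4 genes against 57.8% of features. Fosb there was 0.84 ± 0.33 (limma adjusted p = 0.03096), a call lost without any 1 of replicates 1, 2 and 4 of no NTBC or replicates 1 and 3 of the reduced dose (limma adjusted p from 0.05816 to 0.1182) and turned to -0.28 with normexp correction. In livers without p53 that step changed 61.3% of features and 5 genes, with Fosl1, Fosl2, Myc and Jun higher (23.2% of features) and Ier2 lower (38.1%), and arrays did not overlap for 4 genes against 54.4% of features. The Ier2 fall of 0.61 ± 0.23 (limma adjusted p = 0.02577) was lost without replicate 1 or 2 of the reduced dose or replicate 3 or 4 of no NTBC (limma adjusted p from 0.05675 to 0.1068), with normexp correction (-0.58, limma adjusted p = 0.05172) and without the 2 arrays highest in Egr1 (-0.46, limma adjusted p = 0.07094).

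The levels of cell type markers moved with dose. Without NTBC, all 10 hepatocyte markers measured fell in Fah-/- livers (median -1.68) and all 9 macrophage markers rose (median 1.47), as did 4 of 7 cholangiocyte markers. The mean level of the macrophage list was 0.58 to 1.30 on the full-dose arrays and 1.84 to 3.36 without NTBC, and that of the cholangiocyte list -1.53 to -0.90 and -0.37 to 0.50. In livers without p53 the counts were 10 of 10 hepatocyte markers lower, 8 of 9 macrophage markers higher and 4 of 7 cholangiocyte markers higher. Lymphocyte markers were lower for 4 of 10 in Fah-/- livers, with 1 higher, and for 7 of 10 without p53 (median -1.73). Endothelial markers were higher for 5 of 9 and lower for 1 in Fah-/- livers, and higher for 1 and lower for 4 of 9 without p53. Stellate cell markers were higher for 2 of 10 and 4 of 10, and 0 of 5 neutrophil markers passed in either. On the reduced dose, 8 of 10 hepatocyte markers fell and 1 of 9 macrophage markers rose in Fah-/- livers, with the macrophage list at 0.54 to 1.28. Their part in the rise of Fosl1, Fosl2 and Myc was not tested, and in whole liver fewer cells of a type and less RNA per cell cannot be told apart.

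Between genotypes 0 to 2 of the 10 genes passed in each comparison, near the share of all features. On the full dose 13.9% of features differed between livers with and without p53, and 0 of the 10 genes passed the adjusted test in limma, with 2 at an unadjusted p under 0.05, Ier2 (-0.65 ± 0.23, limma adjusted p = 0.06319) and Myc (-0.71 ± 0.32, limma adjusted p = 0.1428). Without Fah-/- replicate 4, its lowest array, the Myc difference was -1.09 (limma adjusted p = 0.01143), and with the mean of its probes it was -0.83 (limma adjusted p = 0.01435). Ier2 passed without Fah-/- replicate 3 (-0.79, limma adjusted p = 0.03947), without p53-/- replicate 3 (-0.80, limma adjusted p = 0.03343) and with normexp correction (-0.98, limma adjusted p = 0.00673).

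On the reduced dose 15.6% of features and 2 genes passed, both FOS genes and both higher without p53 (9.84% of features). All 4 Fosb arrays without p53 lay between -4.24 and -3.84 and all 4 with p53 at -5.35 or below, none of these well above background, a difference of at least 1.36-fold (fitted 1.72 ± 0.33, limma adjusted p = 0.001204). Fosl2 was higher by 0.98 ± 0.22 (limma adjusted p = 0.003456), with the lowest array without p53 at -2.92 and the highest with p53 at -3.24. Neither call held with normexp correction (0.12 and 0.23) or in the authors' deposited values (0.18 and 0.24). Myc was 0.79 ± 0.32 higher without p53 with no overlap of arrays, as was the case for 24% of features, and did not pass (limma adjusted p = 0.09309), but did with the mean of its probes (0.78, limma adjusted p = 0.01975) and in the authors' deposited values (0.72, limma adjusted p = 0.04916). Egr1 (1.29 ± 0.60, limma adjusted p = 0.1529) and Fos (1.19 ± 0.63, limma adjusted p = 0.2107) did not pass. Of the marker lists, 0 of 9 macrophage markers and 2 of 10 lymphocyte markers were higher without p53 on this dose, and 1 of 10 hepatocyte markers was lower.

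**Figure D3:**
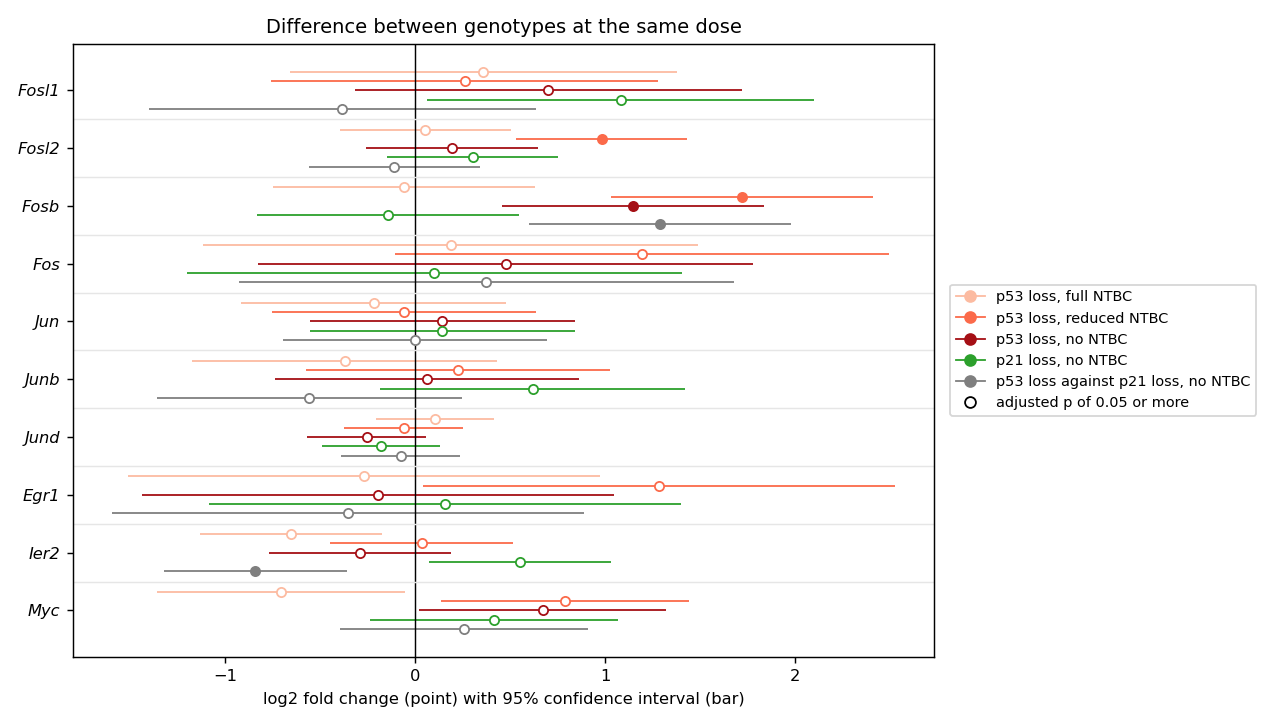
Log2 fold change of each gene between genotypes at each NTBC dose, with 95% intervals from limma (4 arrays per group). Fosb lies to the right of 0 without p53 on the reduced dose (1.72) and without NTBC (1.14), and most other intervals cross 0.

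Without NTBC, 14.2% of features differed with p53 loss and 1 of the genes did, Fosb, higher (7.65% of features) by 1.14 ± 0.33 (limma adjusted p = 0.02433). With slide as a block over the 12 arrays without NTBC the difference was 1.11 (limma adjusted p = 0.277), and within the slide shared by the 2 groups it was 1.28 (limma adjusted p = 0.04776). The call was lost without Fah-/- replicate 3 or p53-/- replicate 2, 3 or 4 (0.92 to 1.05, limma adjusted p from 0.0689 to 0.0907) and with normexp correction (0.80, limma adjusted p = 0.1967). Myc (0.67, limma adjusted p = 0.1614) and Fosl1 (0.70, limma adjusted p = 0.3693) did not pass. Lymphocyte markers were lower without p53 for 3 of 10 and endothelial markers for 3 of 9, and 0 of 9 macrophage markers passed.

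Between p21-/- and Fah-/- livers without NTBC 7.53% of features differed, and 0 of the 10 genes passed in limma after adjustment. Of the genes, 2 had an unadjusted p under 0.05, Fosl1 and Ier2 (0.55 ± 0.23, limma adjusted p = 0.1534). Since 2 of the 4 p21-/- arrays were from female livers and all 4 Fah-/- arrays had the male pattern, sex was partly mixed with genotype here. Junb (0.62 ± 0.39, limma adjusted p = 0.3575) and Myc (0.41 ± 0.32, limma adjusted p = 0.4648) overlapped. Set directly against each other, the p53-/- and p21-/- livers without NTBC differed in 11% of features (5.04% higher and 5.96% lower without p53) and in 2 of the genes, with no overlap of arrays for Ier2 and for 12.9% of features. Fosb was higher without p53 by 1.29 ± 0.33 (limma adjusted p = 0.01394) and Ier2 lower by 0.84 on the log2 scale (-0.84 ± 0.23, limma adjusted p = 0.02067). With slide as a block these were 1.005 (limma adjusted p = 0.3845) and -0.76 (limma adjusted p = 0.1793). Within the shared slide, which held only replicates 1 and 2 of each group, all from female livers, they were 0.84 and -0.84 (limma adjusted p = 0.9999 for both). Fosb was lost without p21-/- replicate 4 (1.14, limma adjusted p = 0.05022) or p53-/- replicate 2 (1.06, limma adjusted p = 0.06202) or 4 (1.16, limma adjusted p = 0.05572), with normexp correction (0.59, limma adjusted p = 0.4847) and in the authors' deposited values (0.22, limma adjusted p = 0.05539). Ier2 was lost without p21-/- replicate 1 (-0.63, limma adjusted p = 0.07748), p53-/- replicate 3 (-0.81, limma adjusted p = 0.05333) or 4 (-0.75, limma adjusted p = 0.07795), and without both female p21-/- arrays (-0.66, limma adjusted p = 0.1329). That last fit set female p53-/- against male p21-/- livers, so sex and genotype cannot be told apart in it.

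Whether the dose response itself differed with p53 was tested as an interaction. For reduced against full, 10.4% of features passed (6.74% with a higher value without p53) and 2 of the genes did, both higher. The Myc response was larger without p53 by 1.50 ± 0.45 (limma adjusted p = 0.03397), and its 2 other probes gave 1.64 (limma adjusted p = 0.02163) and 1.67 (limma adjusted p = 0.01021). On the brightest probe the call was lost on leaving out 1 of 8 arrays, namely Fah-/- full-dose replicates 1, 2 and 3, Fah-/- reduced-dose replicates 2 and 4, p53-/- full-dose replicate 2 and p53-/- reduced-dose replicates 2 and 3 (1.16 to 1.49, limma adjusted p from 0.0502 to 0.07596), and with normexp correction (0.80, limma adjusted p = 0.2834). The Fosb response differed by 1.78 ± 0.47 (limma adjusted p = 0.01853), on Fah-/- groups in which 1 of 8 arrays was well above background and a p53-/- full-dose group in which none was. It was -0.53 with normexp correction and 0.25 (limma adjusted p = 0.1447) in the authors' deposited values. Fosl2 was at 0.93 ± 0.31 (limma adjusted p = 0.05471) and passed without Fah-/- full-dose replicate 1 (1.12, limma adjusted p = 0.02119), Fah-/- reduced-dose replicate 1 (1.11, limma adjusted p = 0.02677) or p53-/- full-dose replicate 4 (1.07, limma adjusted p = 0.03353).

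For none against full, 9.11% of features and 0 of the genes passed the interaction in limma, with Myc at 1.38 ± 0.45 (limma adjusted p = 0.05346) nearest, and Fosb at 1.20 ± 0.47 (limma adjusted p = 0.113). Both had an unadjusted p under 0.05, and they were the only ones of the 10 that did. Myc passed without Fah-/- full-dose replicate 4 (1.76, limma adjusted p = 0.0053), p53-/- full-dose replicate 4 (1.62, limma adjusted p = 0.02359) or Fah-/- replicate 1 of no NTBC (1.56, limma adjusted p = 0.03544), and on its 2 other probes (1.43, limma adjusted p = 0.04813, and 1.60, limma adjusted p = 0.01442). Fosb passed without p53-/- replicate 1 of no NTBC (1.65, limma adjusted p = 0.005613). The interaction of Fosl1 was 0.34 ± 0.70 (95% interval -1.10 to 1.78) and that of Fosl2 0.14 ± 0.31 (95% interval -0.50 to 0.78). The Myc, Fosb and Fosl2 results on the reduced dose rest on 4 slides that each held 1 group.

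The early genes also varied between arrays of 1 group. The SD within groups, pooled over the 7, was 0.939 for Fos, above that of 98.05% of genes, and 0.895 for Egr1, above 97.68%, against a median of 0.263 over all genes. Fosl1 followed at 0.733, Junb at 0.575, Jun at 0.498, Fosb at 0.493, Myc at 0.465, Ier2 at 0.339, Fosl2 at 0.317 and Jund at 0.212. The array highest in Fos was also the highest in Egr1 in 6 of the 7 groups, and the lowest was shared in 6 of 7. Fos and Jun shared their highest array in 5 groups and their lowest in 5. Junb shared its highest array with Egr1 in 6 groups and with Ier2 in 6, but its lowest in only 2 and 3 groups. In p21-/- livers without NTBC replicate 1 was the highest array in 8 of the 10 genes, all but Jund and Myc.

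**Figure D4:**
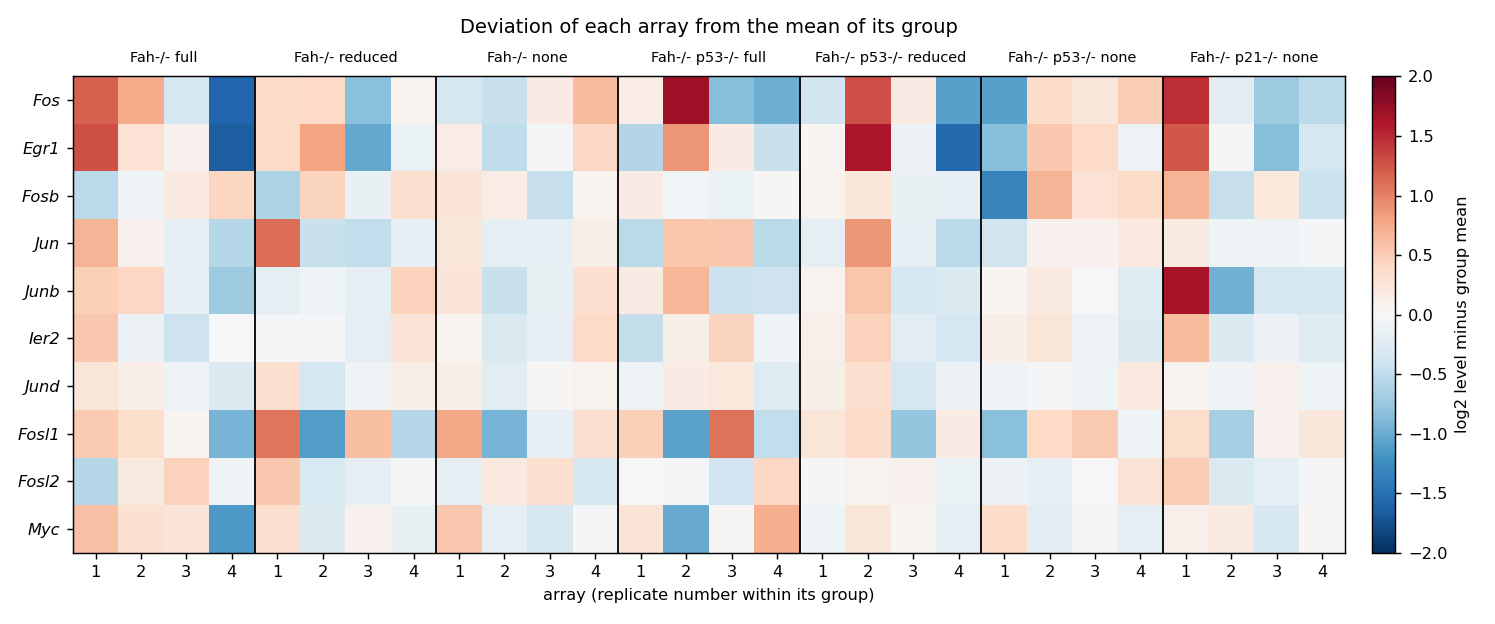
Level of each gene on each array minus the mean of its group of 4, in log2 units, as a heat map over the 28 arrays. The rows of Fos and Egr1 share their highest array in 6 of 7 groups, while Jund stays near 0 (SD within groups 0.212).

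Across all 28 arrays, the genes most like each member by Pearson's r among 14537 named genes were taken as a description, since the points share dose, run and slide. Fos was nearest to Egr1 (r = 0.783), the orphan receptor gene Nr4a1 (0.780) and Btg2 (0.725). The nearest to Fosl1 were Tnfrsf12a (0.972), which encodes the receptor of the cytokine TWEAK, the kinase gene Map3k14 (0.966) and the urokinase receptor gene Plaur (0.965). For Fosl2 they were Pla2g7 (0.970), Dram1 (0.968) and Stk10 (0.962), and for Myc Prune1 (0.941), Sowahc (0.935) and Trappc8 (0.931). Jun was nearest to Insc (0.786), the protease inhibitor gene Slpi (0.781) and the stress factor gene Atf3 (0.781). Junb was nearest to Cracdl (0.882), Jund to C87436 (0.892) and Fosb to Vstm5 (0.818), and among the genes near Ier2 were Drg2 (0.897) and Mydgf (0.897).

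Other genes of these pathways were taken from lists of related genes. Their counts stand beside the shares of all features. Without NTBC 29.3% of features were higher and 41.6% lower in Fah-/- livers, and 29.6% and 40.1% without p53. On the reduced dose 39.8% passed in each genotype. Of 48 other immediate early and primary response genes measured, 20 were higher and 17 lower without NTBC in Fah-/- livers (median -0.02, against -0.17 over all features), and 22 were higher and 9 lower without p53 (median 0.57, against -0.14). After quantile normalization the split in Fah-/- livers was 22 and 9. Atf3, an AP-1 partner gene outside the 48, rose by 3.01 ± 0.49 (limma adjusted p = 9.128e-06). Of the 48, Rhob rose by 2.08 ± 0.19 and Ier5 by 2.51 ± 0.23, while Bhlhe40 (-2.44 ± 0.30) and Zfp36 (-1.61 ± 0.22), which encodes a protein that speeds decay of short-lived mRNAs, fell. Klf4, which encodes a zinc finger factor of epithelia, rose by 4.16 ± 0.32 in livers without p53.

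On the reduced dose, 4 of the 48 rose and 14 fell in Fah-/- livers, and 3 rose and 8 fell without p53. Among those that fell in Fah-/- were Dusp1, which encodes a phosphatase that turns off MAP kinases (-2.19 ± 0.31, limma adjusted p = 6.93e-06), Socs3, a brake on cytokine signalling (-2.12 ± 0.34, limma adjusted p = 3.012e-05), and Zfp36 (-1.61 ± 0.22, limma adjusted p = 4.787e-06). The interaction with p53 was 2.28 ± 0.43 for Dusp1 (limma adjusted p = 0.00199) and 1.81 ± 0.48 for Socs3 (limma adjusted p = 0.0175), the latter lost with normexp correction (1.87, limma adjusted p = 0.0807). Dusp1 was lower without p53 on the full dose by 1.37 on the log2 scale (-1.37 ± 0.31, limma adjusted p = 0.003844).

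Of 18 AP-1 target genes measured, 12 were higher and 3 lower without NTBC in Fah-/- livers (median 1.44), and 10 and 3 without p53 (median 1.21). On the reduced dose 0 rose and 5 fell in Fah-/- livers, and 0 rose and 4 fell without p53. Plaur rose by 5.86 ± 0.32 (limma adjusted p = 3.188e-13), Lgals3, which encodes galectin-3, by 4.29 ± 0.38 (limma adjusted p = 9.514e-10) and Ezr, which encodes the membrane linker ezrin, by 2.02 ± 0.22, while Vegfa fell by 1.37 ± 0.15. Several of these genes, Lgals3 and Plaur among them, are also expressed by macrophages, whose markers rose in the same arrays. The part of macrophages in these changes was not tested.

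Of 39 MYC target genes measured, 21 were higher and 5 lower without NTBC in Fah-/- livers (median 0.38), and 23 and 5 without p53 (median 0.46). The nucleolar genes Nop2 (1.16 ± 0.12) and Ddx18 (1.32 ± 0.16) rose in Fah-/- livers, as did the cell cycle kinase gene Cdk4 (1.18 ± 0.13), and Shmt1 of one-carbon metabolism fell by 2.08 ± 0.17. On the reduced dose 7 rose and 6 fell in Fah-/- livers and 10 rose and 6 fell without p53, where the Myc level itself differed. Of 13 genes of the MYC and MAX network, 2 rose and 5 fell without NTBC in Fah-/- livers and 3 and 6 without p53, with the MAX partners Mnt (-1.33 ± 0.12) and Mxi1 (-1.04 ± 0.13) among those that fell.

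**Figure D5:**
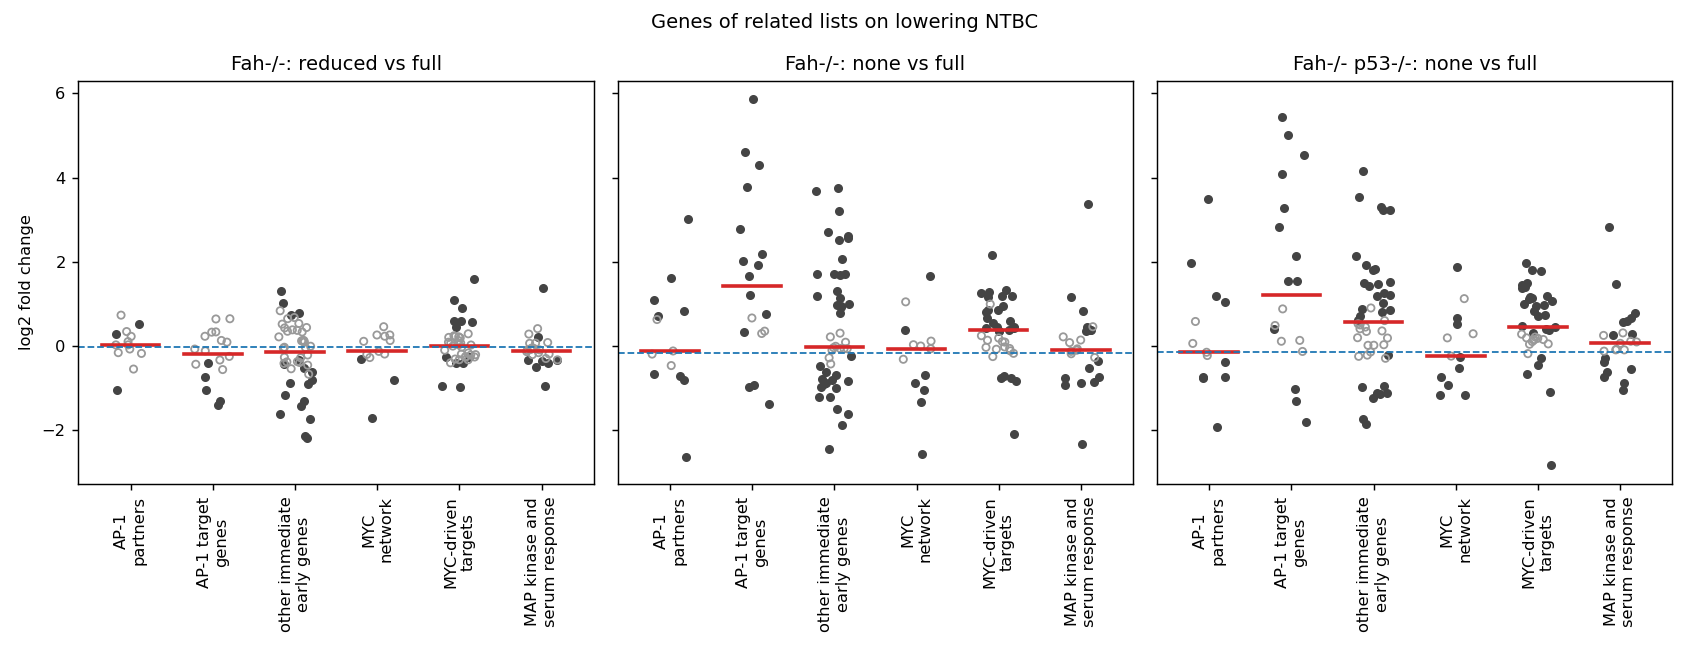
Log2 change of each measured gene of the related lists in 3 panels (reduced against full dose in Fah-/- livers, none against full dose in Fah-/- and in Fah-/- p53-/- livers), 1 point per gene, with filled points passing the limma test, a red bar at the list median and a dashed line at the median of all features. The medians of the AP-1 targets without NTBC are 1.44 in Fah-/- livers and 1.21 without p53.

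Of 24 genes that carry growth factor and MAP kinase signals to these promoters, 7 rose and 8 fell without NTBC in Fah-/- livers (29.3% and 41.6% of all features). Without p53 8 rose and 7 fell (29.6% and 40.1% of all features). These counts are near those shares and are no result about this list in particular. Map2k1 (1.17 ± 0.09) and the serum response cofactor gene Mrtfb (3.37 ± 0.26) rose in Fah-/- livers, and Map2k2 fell by 0.85 ± 0.10. Egfr, the receptor gene for epidermal growth factor, read 5.14 ± 0.13 (SD, n = 4) on the full dose in Fah-/- livers, 4.18 on the reduced dose and 2.83 without NTBC, and 1.97 ± 0.53, 2.10 and 2.28 without p53. On the full dose it was lower without p53 by 3.17 on the log2 scale (-3.17 ± 0.25, limma adjusted p = 5.832e-09), and its response to no NTBC differed by 2.63 ± 0.36. Of 13 AP-1 partner genes outside the 10, 5 rose and 4 fell in Fah-/- livers without NTBC and 4 rose and 5 fell without p53. Of 11 reference genes, 4 rose and 6 fell without NTBC in Fah-/- livers (median -0.31), and 6 rose and 5 fell after quantile normalization (median 0.27), so changes of this size are within what the choice of scaling moves.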

How the data were processed

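Total RNA of 28 mouse liver samples was labelled with Cy3 and hybridised to 1 one-colour Agilent array each, per the labels' protocols. The deposited scanner files hold intensity per spot, extracted with Agilent Feature Extraction 10.7.3.1 per the file headers (10.5 per the submitters' processing notes). Their processed intensity had been background-subtracted and detrended within each array, per the file headers, and the deposited flags score each spot as well above background, saturated or an outlier, per the file headers.

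Control spots and outlier spots were left out, spots of a probe were averaged, and log2 of the processed signal was set relative to the 75th percentile of each array. A probe was kept if some group had it well above background on each of its 4 arrays (27508 of 41174), with the brightest probe standing for a gene. The Fos, Jun and brightest Myc probes are spotted 10 times per array. The 13 comparisons were fitted in limma 3.58.1 (R 4.3.3) with 1 mean per group over 28 arrays and 21 residual degrees of freedom, and Benjamini-Hochberg adjustment over all 20302 features. The number of arrays limits the precision. The script was tested on simulated data.

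The authors also deposited a table of log2 values, used as an alternative. Its columns have medians of 6.89 to 6.91 and correlate with the log2 scanner signal at 0.917 to 0.960 on every array, so scale and direction are known, while its normalization and any centring are not given in the sources used here. Symbols came from array accessions matched to RefSeq, which named 28454 probes.

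The 10 genes and all lists were chosen with earlier results of these data known. From each list, up to 4 genes that passed with the lowest adjusted p and up to 2 in the other direction could be named in a comparison, besides the 10 genes themselves and the 3 nearest genes of each by correlation. Besides leaving out each array, 17 alternatives were run, of which 3 were chosen after seeing the data (outlier spots kept, the 3 farthest arrays left out, the 2 arrays highest in Egr1 left out). Some promoters, and the position of probes relative to deleted parts, were not analysed here, and a few genes that the rule allowed are not reported here.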

Additional observations from a re-analysis of the deposited data

Results flagged for a closer look

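In 70 groups of 4 arrays (10 genes in 7 groups), 5 held an array set apart from the other 3 by a gap past Dixon's 95% critical value, which chance gives in about 1 of 20 groups. Ier2 read 1.78 in p21-/- replicate 1 without NTBC, where the median of the others was 0.90, and Junb read 5.67 in the same sample. Junb read 3.60 in Fah-/- replicate 4 on the reduced dose, against a median of 2.95 in the others. Jund read 3.96 in p53-/- replicate 4 without NTBC, against 3.68. Fos read -2.87 in p53-/- replicate 1 without NTBC, against -1.42. Fosl1 read -5.61 in p53-/- replicate 3 on the reduced dose, against -4.58, and that array alone of the 4 was not well above background.

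The response to the reduced dose differed with p53 for Fosb by 1.78 and for Myc by 1.50 on the log2 scale, by the limma interaction test. The values beside the Myc result are that 3 probes gave 1.50, 1.64 and 1.67, and that each of the 4 groups filled a slide of its own. For Fosb, 4 of the 8 arrays without p53 at these doses and 1 of the 8 with p53 were well above background.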

How the results depend on the processing

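Of 3469 recomputed single-gene changes, 3217 kept their direction and their side of the threshold, 193 lost it, 27 gained it and 32 reversed in sign. Of these 32, 26 passed in neither setting and 6 passed in one or both. The 6 all reversed with normexp background correction and concern dim probes. In livers without p53, Fosb became -0.63 for none against full and -1.02 for reduced against full, Fosl1 -1.22 and Fosl2 -0.66 for reduced against full. Fosb became -0.28 for none against reduced in Fah-/- livers and its interaction on the reduced dose -0.53. Of changes that passed in neither setting, normexp turned Fos to -0.057 and -0.035 for none against full with and without p53 and -0.71 for reduced against full without p53, Fosl1 to -0.29 and Fosl2 to -0.11 for reduced against full in Fah-/- livers, and the Fosl2 interaction on the reduced dose to -0.54. The deposited values turned Fos to -0.017 and Fosl1 to -0.048 for reduced against full without p53, and quantile normalization turned Fosb to 0.085 for none against full in Fah-/- livers. Egr1 for p53 against p21 loss turned to 0.060 without the 2 arrays highest in Egr1, 0.53 without the 3 farthest arrays and 0.25 without the female p21-/- arrays, and Fos for reduced against full without p53 to -0.24 without the 2 arrays highest in Egr1. Low levels are limited by signal over background, which differed between scan runs and so between doses.

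The number of the 10 genes that passed moved by more than 1.5 times, or to or from 0, as follows, and the cause was not tested except where stated. The share of all features that passed under each alternative is not reported here, so these counts are no result about these genes in particular. For none against full in Fah-/- livers it stayed between 4 and 6 under the alternatives run. With normexp correction it was 4 for none against full without p53, 3 and 2 for reduced against full without and with p53, 1 for p53 loss on the full dose, 0 on the reduced dose and without NTBC, 1 for p53 against p21 loss and 0 for the interaction on the reduced dose. The 3 for reduced against full without p53 included falls of Fosb and Fosl1, which had not passed without that correction. Requiring signal on all 28 arrays dropped Fos, Fosb, Fosl1 and Fosl2 by construction, and left 5 for none against full without p53, 3 and 2 for none against reduced without and with p53, 0 for p53 loss on the reduced dose and without NTBC, and 1 for p53 against p21 loss and for both interactions. A minimum change of 2-fold left 3 for none against reduced and for reduced against full without p53, 2 for reduced against full in Fah-/- livers, and 1 for p53 loss on the reduced dose and p53 against p21 loss. The authors' deposited values gave 2 for reduced against full in Fah-/- livers and 1 each for p53 loss on the reduced dose, p21 loss, p53 against p21 loss and both interactions. The mean of probes gave 1 for p53 loss on the full dose and for the interaction without NTBC, and a variance trend gave 1 for the latter. Fitting the compared groups alone, with fewer samples, gave 0 for p53 loss without NTBC and for p53 against p21 loss, and 1 for the interaction on the reduced dose. For p53 against p21 loss the number was 0 with slide as a fixed block, 0 within the shared slide, and 1 without the female p21-/- arrays, without the 3 farthest arrays or without the 2 arrays highest in Egr1. For p53 loss without NTBC it was 0 with slide as a fixed block. The interaction without NTBC gave 1 without the 3 farthest arrays, and that on the reduced dose 1 without the 2 arrays highest in Egr1.

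Leaving out 1 array at a time, again without the shares of all features, gave 3 to 5 for reduced against full in Fah-/- livers and 4 to 5 without p53, 6 to 6 and 7 to 9 for none against full, and 3 to 5 and 4 to 6 for none against reduced. It gave 0 to 1 for p53 loss on the full dose, 2 to 2 on the reduced dose, 0 to 1 without NTBC, 0 to 0 for p21 loss, 0 to 2 for p53 against p21 loss, 1 to 3 for the interaction on the reduced dose and 0 to 1 for that without NTBC. Among changes that did not pass, signs turned for Egr1 (none against full, -0.45 to 0.53 with p53 and -0.019 to 0.47 without; p53 against p21 loss, -0.64 to 0.060), Fos (interaction without NTBC, -0.10 to 0.85; reduced against full without p53, -0.24 to 0.76), Fosb (none against full in Fah-/- livers, -0.29 to 0.042) and Fosl1 (reduced against full without p53, -0.00047 to 0.72).

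Deviations from group means of same-numbered arrays correlated with a median of 0.01 over 84 pairs, with 18 over 0.1. For arrays of different numbers the median was -0.007 over 252 pairs, with 33 over 0.1. The labels do not say what a replicate number shares, and these values do not settle whether the numbers pair the samples. With the replicate number as a block, the interaction without NTBC gave 1 gene in place of 0, Myc at an adjusted p of 0.04582 in limma.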

Other observations

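Among the 48 other early genes, 3 were higher and 1 lower in p53-/- livers without NTBC, where 14.2% of all features passed. On the reduced dose 4 were higher and 2 lower, where 15.6% of all features passed. These counts are no result about these genes in particular. Sex without NTBC, and slide on the reduced dose, cannot be told apart from p53 genotype. Plk2, which encodes a polo-like kinase and is a known p53 target, had a mean level of -0.95 ± 0.22 (SD, n = 4) on the full dose in Fah-/- livers, 0.06 ± 0.44 on the reduced dose and 0.77 ± 0.20 without NTBC. Without p53 the means of Plk2 were -1.32 ± 0.46, -1.02 ± 0.24 and -0.60 ± 0.60. Plk2 was lower without p53 by 1.08 ± 0.25 on the reduced dose (-1.08, limma adjusted p = 0.004883) and by 1.37 ± 0.25 without NTBC (-1.37, limma adjusted p = 0.0009115), with no overlap of arrays in either. Within the slide shared by both groups without NTBC it was -1.21 (limma adjusted p = 0.06751). Plk2 stood at 0.94 ± 0.17 in p21-/- livers.

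Klf4, which encodes a zinc finger factor, read between -0.28 and 0.10 in the means of the 4 groups given NTBC. Its means without NTBC were 2.29 ± 0.61 in Fah-/- livers, 3.96 ± 0.29 without p53 and 2.64 ± 0.72 without p21. The difference with p53 loss was 1.67 ± 0.32 (limma adjusted p = 0.001391), and 1.51 (limma adjusted p = 0.1202) with slide as a block over the 12 arrays. Sex moved with that comparison, and its part was not tested.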
